A study of Mus musculus with 2 samples.

Results

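Slc15a2, Rnf19b and Cfap46 are 3 of the 27998 genes listed in the count tables of tumor-infiltrating natural killer (NK) cells. They were chosen together because their level over NK-like cells stood far higher in the library of NK-Hif1a-/- mice, whose NK cells lack Hif1a (KO), than in that of wild-type mice (WT). That contrast is therefore described here and not tested, and with 1 library per genotype no difference below has a replicate check. The mice carried subcutaneous tumors grown from RMA-S cells, which derive from a mouse lymphoma and show little MHC class I on their surface, and were killed 2 weeks after injection. The sorted cells were CD3ε-negative and NK1.1-positive, and both libraries were made with the 10x Chromium 3′ kit, which counts transcripts by tags from their 3′ ends, each with a unique molecular identifier (UMI). Hif1a encodes the oxygen-regulated subunit of hypoxia-inducible factor 1. How Hif1a was deleted, the ages of the mice and the number of mice or tumors behind each library are not stated in the labels.

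The 3 genes have unrelated roles. Slc15a2 encodes PEPT2, a proton-coupled carrier of di- and tripeptides best known from kidney tubules, and its relatives Slc15a3 and Slc15a4 encode carriers of endolysosomes that pass bacterial peptide fragments to NOD sensors. Rnf19b encodes NKLAM, a RING-between-RING (RBR) E3 ubiquitin ligase of the cytotoxic granules of NK and cytotoxic T cells. Such ligases take ubiquitin from an E2 enzyme onto their own cysteine before they pass it to a substrate. Cfap46 encodes a protein whose homolog in the green alga Chlamydomonas belongs to the C1d projection of the central apparatus of motile cilia. Lymphocytes build no motile cilia, and no role of Cfap46 in NK cells is assumed here.

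After barcodes with fewer than 500 genes or more than 10% mitochondrial UMIs were left out, 3067 KO and 3555 WT cells remained, of which 2880 KO and 3294 WT cells were NK-like. The median depth of NK-like cells was 3745 UMIs in the KO library and 4418.5 UMIs in the WT library. The NK receptor genes Ncr1 and Klrb1c had a UMI in 60.0% and 83.2% of thinned KO NK-like cells, and in 57.9% and 82.8% of WT ones. The T cell gene Cd3e had one in 0.121% of KO and 0.156% of WT cells. Other CD3 genes were found more often, Cd3d in 3.47% of KO and 5.12% of WT cells and Cd3g in 2.38% and 6.18%. Thinned means cut at random to 2500 UMIs a cell, which dropped 403 KO and 90 WT cells of lower depth. The targeted gene Hif1a stood at 60.1 UMIs per 1000000 UMIs (CPM) in KO and 58.7 CPM in WT NK-like cells, and 3′ tags outside the deleted part check nothing. The libraries shared 19 barcode sequences, and without those 38 cells the log2 ratios given next were 2.81 for Slc15a2, 2.27 for Rnf19b and 1.98 for Cfap46.

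The NK-like cells were split into 7 sub-clusters, drawn without the 3 genes. They are called here by their leading markers. The mature sub-cluster had Cx3cr1, S1pr5, Klrg1 and Ly6c2, the Nr4a sub-cluster had Nr4a1, Gadd45b, Csrnp1, Nfkbid and Nfkbiz, and the immature sub-cluster had Emb, Cd27, Kit and Tcf7 beside Ctla4, Ndrg1 and Cd3d. The heat shock sub-cluster had Hspa1a, Hspa1b, Fos and Jun, and the granzyme sub-cluster had Gzmc to Gzmg with proliferation genes. A further pair that no marker list named is called the Ltb sub-cluster, led by Ltb, Zfp512, Cd3g and Cxcr3, and the Ccr7 sub-cluster, led by Ccr7, Ier5l, Cd83 and Cxcr4. The name of the immature sub-cluster rests on its leading genes alone, since the full list of 10 immature genes was not highest there. That list summed to 1949 CPM in its KO and 2334 CPM in its WT cells. The Ltb sub-cluster had 2642 CPM in KO and 2358 CPM in WT cells, and the Ccr7 one 2686 CPM in KO and 3152 CPM in WT. The cells of the sub-clusters were divided unevenly: the Nr4a and Ccr7 sub-clusters held 1106 and 590 KO cells against 158 and 33 WT cells, and the granzyme sub-cluster 20 KO against 129 WT cells. A cluster held mostly by 1 library may be that library and not a type of cell. Outside the NK-like class stood a T-like cluster with 72 KO and 114 WT cells, led by Cd3d, Cd3e and Cd3g, and a cluster led by Cd74, Tmem176b and H2-Aa with 109 KO and 141 WT cells, called the Cd74 cluster. Of its top 10 genes, 5 were on the innate lymphoid cell list (Tmem176b, Tmem176a, Rora, Il7r and Cxcr6) and 4 on the dendritic list, so it was left unnamed. Of the NK list, Nkg7 had a UMI in 93.1% of its thinned KO and 90% of its thinned WT cells, and Klrk1 in 86.3% and 89.3%. Eomes had one in 10.8% and 9.29%, and Prf1 in 5.88% and 13.6%. Its KO and WT cells differed in myeloid and B cell markers. The myeloid genes Lyz2 and Apoe and the B cell gene Cd79a had a UMI in 5.88%, 4.90% and 3.92% of its 102 thinned KO cells, and in 0% of its 140 thinned WT cells. The myeloid list genes Cd68 and Fcgr3 were found less often in its KO cells.

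All 3 genes passed the minimum of 200 UMIs over both libraries, and all 3 were at least 2-fold higher in the KO library, as were 122 of 7971 genes (1.53%). The genes were chosen on this ratio, so nothing is read from the count. By log2 ratio with 1 CPM added, Slc15a2 ranked 1, Rnf19b 5 and Cfap46 11 of these genes. The intervals given with levels, ratios and shares are exact 95% Poisson, conditional binomial and binomial (Clopper-Pearson) intervals. They cover counting error only.

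Slc15a2, the peptide carrier gene, had 262 UMIs in KO NK-like cells and 39 in WT ones. That was 21.4 CPM in the KO library (interval 18.9 to 24.2) and 2.17 CPM in the WT library (1.54 to 2.97). The log2 ratio was 2.82 with 1 CPM added and 3.30 without it (2.81 to 3.83), a 9.88-fold difference. The UMIs were spread thinly over 229 KO and 36 WT cells, with 1.14 UMIs per carrying cell in the KO library and 1.08 in WT, and 10 cells held 9.92% of the KO UMIs. After thinning, a UMI was carried by 4.88% of KO cells (interval 4.07% to 5.81%) and by 0.562% of WT cells (interval 0.333% to 0.886%). At counts this low, more carrying cells and more transcripts per cell cannot be told apart.

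Rnf19b, the granule ligase gene, had 890 UMIs in KO and 258 in WT NK-like cells, or 72.8 CPM (68.1 to 77.8) and 14.4 CPM (12.7 to 16.2). The log2 ratio was 2.26 with 1 CPM added and 2.34 without it (2.14 to 2.55), a 5.07-fold difference. After thinning, 15.7% of KO cells (14.3% to 17.2%) and 3.21% of WT cells (2.63% to 3.89%) carried a UMI. It too was spread widely: 10 cells held 4.94% of the KO UMIs, and a carrying cell had 1.34 UMIs in KO and 1.11 UMIs in WT.

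Cfap46, the cilium gene, had 452 UMIs in KO and 156 in WT NK-like cells, or 37.0 CPM (33.6 to 40.6) and 8.68 CPM (7.37 to 10.2). The log2 ratio was 1.97 with 1 CPM added and 2.09 without it (1.82 to 2.36), a 4.26-fold difference. Its KO tags were gathered in few cells. They came from 210 KO and 121 WT cells, so that a carrying cell had 2.15 UMIs in KO and 1.29 UMIs in WT. In the KO library 28 cells with 4 or more UMIs held 36.7% of the Cfap46 UMIs, and 24 of the 28 lay in the Nr4a sub-cluster, while 1 WT cell had as many. After thinning to equal depth, 41.4% of the 145 carrying KO cells and 12.5% of the 72 carrying WT cells still had at least 2 UMIs. Carrying cells made up 5.85% (4.96% to 6.85%) of thinned KO and 2.25% (1.76% to 2.82%) of thinned WT cells. The interval of the Cfap46 ratio, which takes UMIs as independent, is too narrow for that reason.

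**Figure D1:**
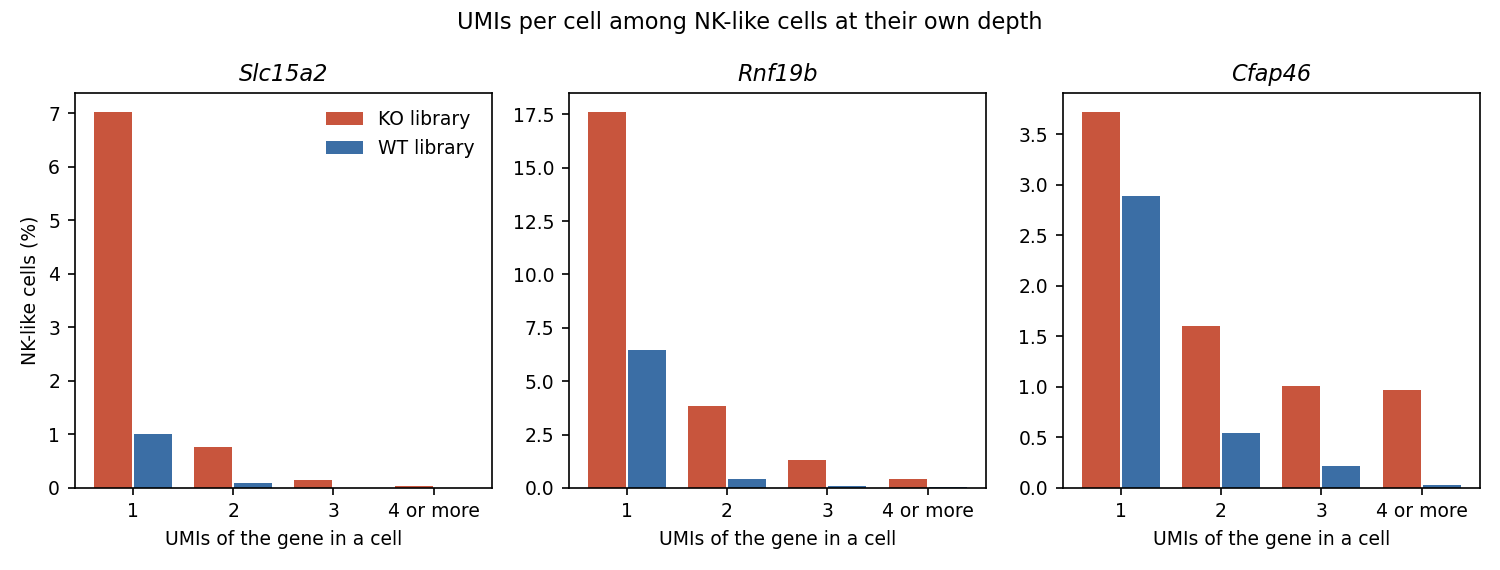
Share of NK-like cells (y axis, percent of 2880 KO or 3294 WT cells) with 1, 2, 3 or 4 and more UMIs of each gene (x axis), for the KO (red) and WT (blue) library at their own depth. Cells with Slc15a2 or Rnf19b mostly had 1 UMI, and so had 107 of the 210 KO and 95 of the 121 WT cells with Cfap46. Cells with 4 or more UMIs numbered 28 in KO and 1 in WT for Cfap46, 12 and 2 for Rnf19b, and 1 and 0 for Slc15a2.

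The genes lie on 3 chromosomes, so they share no locus. By the GENCODE M21 annotation of GRCm38 (mm10), Slc15a2 lies on chromosome 16 (36750177 to 36784962, minus strand), Rnf19b on chromosome 4 (129058271 to 129085886, plus strand) and Cfap46 on chromosome 7 (139600951 to 139683817, minus strand). Of the 18 nearest genes with at least 50 UMIs, 3 on each side of each gene, 0 were 2-fold apart in either direction. Of all 10308 genes with that many UMIs 1.73% were at least 2-fold higher in KO, and the share lower in KO was not counted at that minimum. A count of 0 among so few sets these neighbours apart from no other genes. Their log2 ratios ran from -0.81 for Cd86, an activation ligand gene on the lower side of Slc15a2, to 0.91 for Utf1 on the higher side of Cfap46. Iqcb1, 43.4 kb from Slc15a2, stood at 14.2 CPM in KO and 9.68 CPM in WT cells. GENCODE places a processed pseudogene inside Slc15a2 on the other strand (Gm8425) and 1 inside Cfap46 on the same strand (Gm4459). Neither symbol is listed in the count tables, so how tags from them were counted is not known.

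Because the 3 genes were high in the same library, the 250 bases before each RefSeq start site (GRCm38.p6) are shown, 5′ to 3′ on the strand of the gene. Capitals mark matches on either strand to ACGTG, the core of the HIF binding site, and to TGACG, the half-site of cAMP response elements. The RefSeq start of Rnf19b lies upstream of the GENCODE one.
Slc15a2, chr16:36784963-36785212, minus strand: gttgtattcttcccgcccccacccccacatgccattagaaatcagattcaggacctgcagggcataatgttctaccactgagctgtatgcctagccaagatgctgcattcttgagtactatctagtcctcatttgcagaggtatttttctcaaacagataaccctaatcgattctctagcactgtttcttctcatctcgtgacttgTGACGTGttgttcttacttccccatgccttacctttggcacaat
Rnf19b, chr4:129057894-129058143, plus strand: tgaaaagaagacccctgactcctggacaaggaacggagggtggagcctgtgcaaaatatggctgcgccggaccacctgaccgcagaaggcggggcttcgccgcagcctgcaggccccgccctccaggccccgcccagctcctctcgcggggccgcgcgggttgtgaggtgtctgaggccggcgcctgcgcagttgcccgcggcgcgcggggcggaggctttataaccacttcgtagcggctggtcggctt
Cfap46, chr7:139683816-139684065, minus strand: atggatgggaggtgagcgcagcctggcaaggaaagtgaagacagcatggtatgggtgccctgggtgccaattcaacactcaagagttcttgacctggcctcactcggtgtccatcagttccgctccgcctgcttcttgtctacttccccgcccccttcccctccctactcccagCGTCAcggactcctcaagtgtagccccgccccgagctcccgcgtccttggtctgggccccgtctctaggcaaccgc
The Slc15a2 window held 1 match to each motif, which overlap, 42 and 44 bases before the start. Cfap46 held 1 TGACG match, on the other strand, 76 bases before the start, and no ACGTG, and Rnf19b held neither. Of 32851 RefSeq promoter windows of this length, 16.6% held ACGTG and 17.8% TGACG. No window matched TGANTCA, the AP-1 site present in 6.75% of windows, or the NF-kB consensus, present in 7.25%. AGGTCA, the half-site of nuclear receptors, was matched once, on the other strand in Cfap46, and is present in 14.0% of windows. The Rnf19b window was 69.2% G and C with 3 matches to the GC box GGGCGG, Cfap46 62.0% with 2 and Slc15a2 45.2% with 1, against a median of 52.4% over all windows and a GC box in 32.7% of them. A match is a run of letters and not a bound site, and no match says only that the letters are not in that window.

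Across NK-like states, Slc15a2 was higher in the KO library in each of the 7 sub-clusters, and the interval of the ratio lay above 0 in 6. KO levels ran from 11.4 CPM in the granzyme sub-cluster, on 3 UMIs, to 27.4 CPM in the Ccr7 sub-cluster, and WT levels from 0.486 to 10.9 CPM in the same pair, on 1 and 2 UMIs. Neighbours in either library's order of levels had overlapping intervals, but the KO interval of the Ccr7 sub-cluster (21.6 to 34.4) lay above that of the mature one. In the Nr4a sub-cluster Slc15a2 stood at 24.5 CPM in KO cells (20.1 to 29.7) and 1.47 CPM in WT cells (0.0372 to 8.19), which was 105 UMIs in KO and 1 UMI in WT. In the mature sub-cluster it stood at 12.7 CPM in KO cells (7.09 to 20.9) and 2.30 CPM in WT cells (1.19 to 4.01). In the Ltb sub-cluster it stood at 15.4 CPM in KO cells (10.5 to 21.8) and 1.97 CPM in WT cells (0.722 to 4.28). The KO intervals lay above the WT intervals in all 3 of these sub-clusters. The Ccr7 sub-cluster was the exception, with a log2 ratio of 1.33 (-0.58 to 4.40) without added CPM over 33 WT cells.

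The Slc15a2 difference was not confined to NK-like cells. T-like cells had 9 UMIs in KO and 2 UMIs in WT, or 27.5 CPM in KO and 3.55 CPM in WT, a log2 ratio of 2.95 (0.68 to 6.20) without added CPM. The Cd74 cluster had 8 UMIs in KO and 2 UMIs in WT, or 12.9 CPM in KO and 2.51 CPM in WT, a log2 ratio of 2.37 (0.04 to 5.64). Thinned shares were 6.06% of KO and 0.885% of WT T-like cells, and 4.90% of KO and 0.714% of WT cells of the Cd74 cluster. These shares are close to those of NK-like cells, although the median depths of both clusters, 4560.5 and 4580 UMIs in the KO and 4613.5 and 4859 UMIs in the WT library, were somewhat higher. No cell type in the libraries is known to lack Slc15a2, so the share that free RNA would give is not known, and its part in the like shares was not tested. The hemoglobin gene Hbb-bs, whose RNA red blood cells release, had a UMI in 36.7%, 42.4% and 33.3% of thinned KO NK-like, T-like and Cd74-cluster cells, and in 19.7%, 22.1% and 23.6% of WT ones. By level Hbb-bs went the other way in NK-like cells, at 181 CPM in KO and 363 CPM in WT.

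Rnf19b was higher in the KO library in all 7 sub-clusters too, with the interval above 0 in 6, and its highest KO level lay in the Cd74 cluster, outside the NK-like class. In the Cd74 cluster it stood at 150 CPM in KO cells (121 to 184) and 50.2 CPM in WT cells (35.9 to 68.4), a log2 ratio of 1.58 (1.03 to 2.16) without added CPM. Its KO interval there lay above that of each sub-cluster, while its WT interval overlapped that of the Nr4a sub-cluster. The KO and WT cells of the Cd74 cluster differed in myeloid and B cell markers, as given above. The part of such cells in these Rnf19b levels was not tested. In T-like cells Rnf19b stood at 88.5 CPM in KO (59.3 to 127) and 30.2 CPM in WT (17.6 to 48.4), a ratio of 1.55 (0.64 to 2.51). Among KO sub-clusters the Ccr7 one had 97.4 CPM (86.0 to 110), the Nr4a one 81.3 CPM (73.0 to 90.3), the immature one 78.5 CPM (63.4 to 96.2) and the mature one 38.0 CPM (27.7 to 50.9). The first 3 overlap each other, and the mature one lies below them. In the WT library the same sub-clusters stood at 16.4, 27.9, 16.1 and 12.1 CPM, and only the Nr4a interval (16.8 to 43.6) lay above the mature one (9.26 to 15.4).

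The ratio intervals of Rnf19b overlapped between all 7 sub-clusters. The log2 ratio without added CPM was 2.28 in the immature sub-cluster (1.83 to 2.74), 1.66 in the mature one (1.07 to 2.23) and 1.54 in the Nr4a one (0.88 to 2.29). The Ltb and heat shock sub-clusters had 1.85 (1.33 to 2.38) and 1.89 (0.997 to 2.78). The granzyme sub-cluster had 1.07 (-0.27 to 2.23), the interval that reached 0.

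Cfap46 behaved differently, with KO levels that ranged 20.8-fold over sub-clusters, against 2.40-fold for Slc15a2 and 3.19-fold for Rnf19b. It stood at 72.2 CPM in KO cells of the Nr4a sub-cluster (64.3 to 80.7) and 10.3 CPM in WT cells there (4.14 to 21.2), a log2 ratio of 2.81 (1.75 to 4.14) without added CPM. In the mature sub-cluster it stood at 46.5 CPM in KO cells (35.0 to 60.5) and 16.1 CPM in WT cells (12.8 to 19.9), a ratio of 1.53 (1.01 to 2.04). These were the 2 highest KO levels and their intervals lay above those of all other KO clusters.

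In the Ltb sub-cluster, by contrast, Cfap46 stood at 3.48 CPM in KO cells (1.40 to 7.16) and 2.62 CPM in WT cells (1.13 to 5.17). The heat shock sub-cluster had 12.4 CPM in KO cells (4.99 to 25.6) and 9.64 CPM in WT cells (5.97 to 14.7). In both the library intervals overlapped, and the ratio intervals, -1.29 to 2.06 and -1.11 to 1.65, include differences of more than 2-fold upward, so no difference was detectable at this depth. The Ccr7 sub-cluster had 20.5 CPM in KO cells and 21.9 CPM in WT cells, on 56 KO and 4 WT UMIs. The T-like cells had 3 KO and 2 WT UMIs and the Cd74 cluster 2 KO and 6 WT UMIs, too few to set a direction. The thinned shares went the same way, at 9.63% of KO cells (7.84% to 11.7%) in the Nr4a sub-cluster and 0.752% (0.155% to 2.18%) in the Ltb one.

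**Figure D2:**
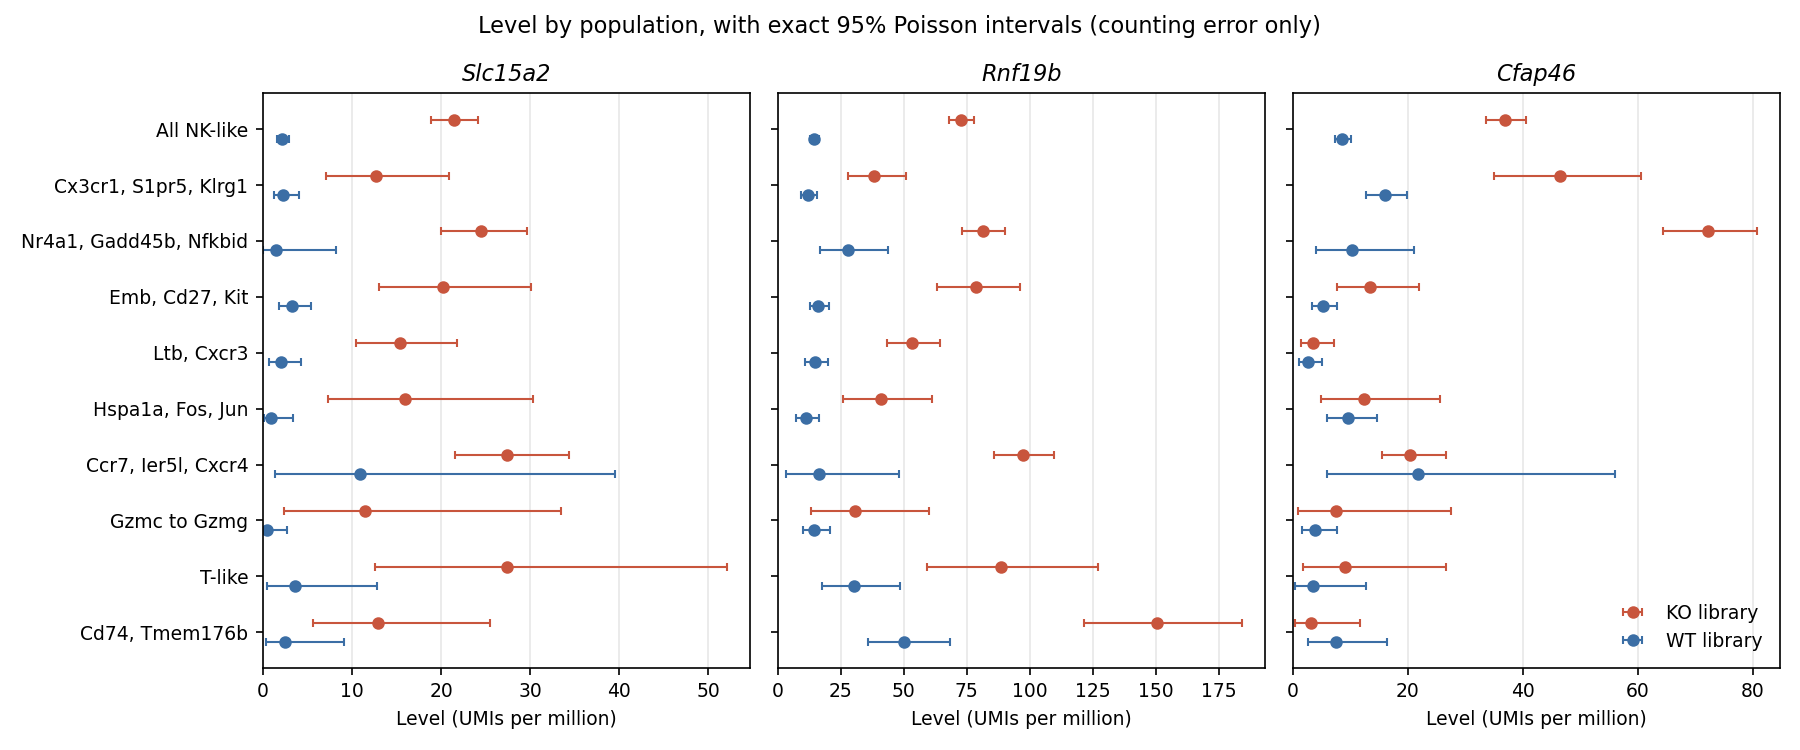
Level of each gene (x axis, CPM, linear) in KO (red) and WT (blue) cells of each population (y axis), with exact 95% Poisson intervals as bars. KO points of Slc15a2 and Rnf19b lie right of the WT points in every population, whereas Cfap46 runs from 72.2 CPM in KO and 10.3 CPM in WT cells of the Nr4a sub-cluster to 3.48 CPM in KO and 2.62 CPM in WT cells of the Ltb one.

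Within sub-clusters with at least 100 cells of both libraries, genes with at least 20 UMIs give the background. All 3 genes were at least 2-fold higher in the KO library in the mature sub-cluster, where 1.67% of genes were, in the Nr4a sub-cluster, where 5.73% were, and in the immature sub-cluster, where 2.21% were. In the Ltb sub-cluster, where 2.64% were, Slc15a2 and Rnf19b passed that fold, and Cfap46 had 15 UMIs, below the minimum. In the heat shock sub-cluster, where 2.49% were, Rnf19b was and Cfap46 was not, and Slc15a2 had 11 UMIs. Rnf19b was also past that fold in T-like cells (4.34% of genes) and in the Cd74 cluster (4.04%), where the other 2 genes were below the minimum. Past 2-fold in the other direction, lower in KO, were 1.96% of genes in the mature, 1.26% in the Nr4a, 2.06% in the immature, 1.82% in the Ltb and 3.59% in the heat shock sub-cluster, 3.53% in T-like cells and 2.31% in the Cd74 cluster, and none of the 3 genes where tested. These cells were part of the values on which the genes were chosen, so the counts describe how far the difference extends and no more.

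**Figure D3:**
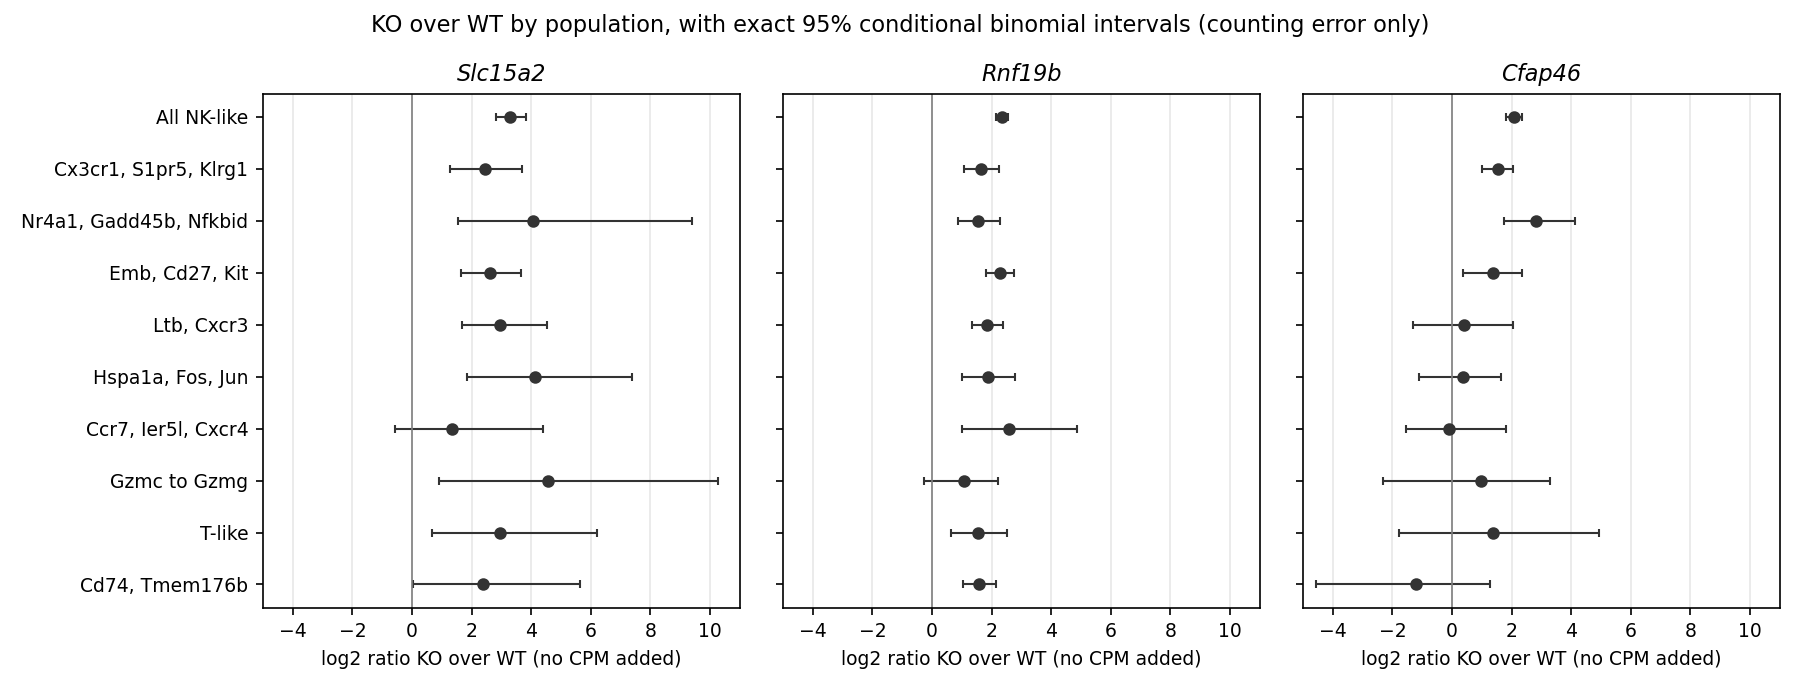
The log2 ratio of KO over WT without added CPM (x axis) in each population (y axis), with exact 95% conditional binomial intervals as bars and a line at 0. For Slc15a2 and Rnf19b 6 of 7 sub-cluster intervals lie above 0, and for Cfap46 3 do, those of the mature, Nr4a and immature sub-clusters.

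The uneven make-up of the libraries touches the 3 genes unequally. The Nr4a sub-cluster held 38.4% of the KO and 4.80% of the WT cells. It carried 40.1% of the Slc15a2 UMIs in the KO library and 2.56% in the WT library, and 39.1% of the KO and 7.36% of the WT Rnf19b UMIs, close to its share of cells in the KO library. It carried 68.4% of the Cfap46 UMIs in the KO library and 4.49% in the WT library, where the mature sub-cluster had 53.8%. When each KO sub-cluster was given its WT share of cells, the log2 ratio with 1 CPM added was 2.45 for Slc15a2, 1.86 for Rnf19b and 1.32 for Cfap46. Without the Nr4a sub-cluster the Cfap46 ratio was 0.98. Cells that differ in number and cells that changed state cannot be told apart by these values.

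Sub-clusters were drawn from the same counts, so cells were also ordered by the UMIs of gene lists after thinning. A bin is then a range and not a cell type, and 337 KO and 703 WT cells lay within 1 UMI of a limit between bins of the Nr4a and NF-kB list. Its 14 genes include orphan nuclear receptors, NF-kB factors and their feedback inhibitors, with Junb, Btg2, Gadd45b and Csrnp1 beside them. That list summed to 10990 CPM in KO and 4211 CPM in WT NK-like cells. Junb alone gave 2683 CPM of it in KO and 1248 CPM in WT cells, Nfkbia 2347 and 1059 CPM, and Btg2 1272 and 458 CPM. At 0 to 6 list UMIs Rnf19b was found in 12.2% of 376 KO cells (9.10% to 16.0%) and 1.88% of 1116 WT cells (1.17% to 2.86%). At 7 to 13 and 14 to 27 list UMIs it was found in 10.3% and 19.1% of KO cells and in 3.32% and 3.86% of WT cells. At 28 to 122 list UMIs it was found in 17.3% of 1195 KO cells (interval 15.2% to 19.6%) and in 7.46% of 201 WT cells (interval 4.24% to 12.01%). The intervals of the libraries were thus apart at every level of the list, and the WT share was higher at the top of the list than at its bottom.

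Slc15a2 at the lowest list level was found in 1.33% of KO cells (0.433% to 3.08%) and 0.448% of WT cells (0.146% to 1.04%), intervals that overlap. In the upper 3 bins it was found in 4.40%, 5.84% and 5.77% of KO cells against 0.739%, 0.498% and 0.498% of WT cells. The KO interval of the lowest bin lay below those of the upper 2 bins, and the WT share, on 18 cells in all, showed no such order. Cfap46 was found in 1.86% of KO cells (0.752% to 3.798%) and 1.25% of WT cells (0.687% to 2.10%) at the lowest level, and in 1.71% (0.691% to 3.49%) and 2.31% (1.499% to 3.39%) at the next. In the upper 2 bins it was found in 7.04% (4.95% to 9.66%) and 8.03% (6.56% to 9.72%) of KO cells, and in 3.23% (2.12% to 4.70%) and 3.48% (1.41% to 7.04%) of WT cells. The KO and WT intervals of Cfap46 were apart at 14 to 27 list UMIs and overlapped in the other 3 bins.

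Cfap46 also followed the list of 11 mature NK genes in both libraries, among them Cx3cr1, S1pr5, Zeb2 and Klrg1. Gzma alone gave 13885 of the 16095 CPM of that list in KO and 12869 of 15009 CPM in WT cells, so that its bins follow Gzma above all. From the lowest to the highest bin, of 0 to 21, 22 to 36, 37 to 55 and 56 to 177 list UMIs, it was found in 2.60%, 4.46%, 7.40% and 8.84% of KO cells. In WT cells the series was 0.644%, 1.29%, 3.25% and 3.99%. The lowest and highest bins did not overlap in either library, at 1.46% to 4.25% and 6.68% to 11.4% in KO cells and 0.237% to 1.40% and 2.74% to 5.59% in WT cells. It ran the other way along 10 immature NK genes such as Cd27, Emb and Kit, from 8.71% at 0 to 2 UMIs to 3.67% at 7 to 26 UMIs in KO cells, and from 3.09% to 1.02% in WT cells, again with intervals that did not overlap in either library. The immature bins were narrow, and 1476 of 2477 KO and 1931 of 3204 WT cells lay within 1 UMI of a limit between them. Rnf19b showed no such order, with 17.0% and 14.1% of KO cells and 3.54% and 3.37% of WT cells at the lowest and highest mature level. Slc15a2 was found in 6.41% (4.56% to 8.73%) and 3.74% (2.36% to 5.61%) of KO cells there, intervals that overlap.

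**Figure D4:**
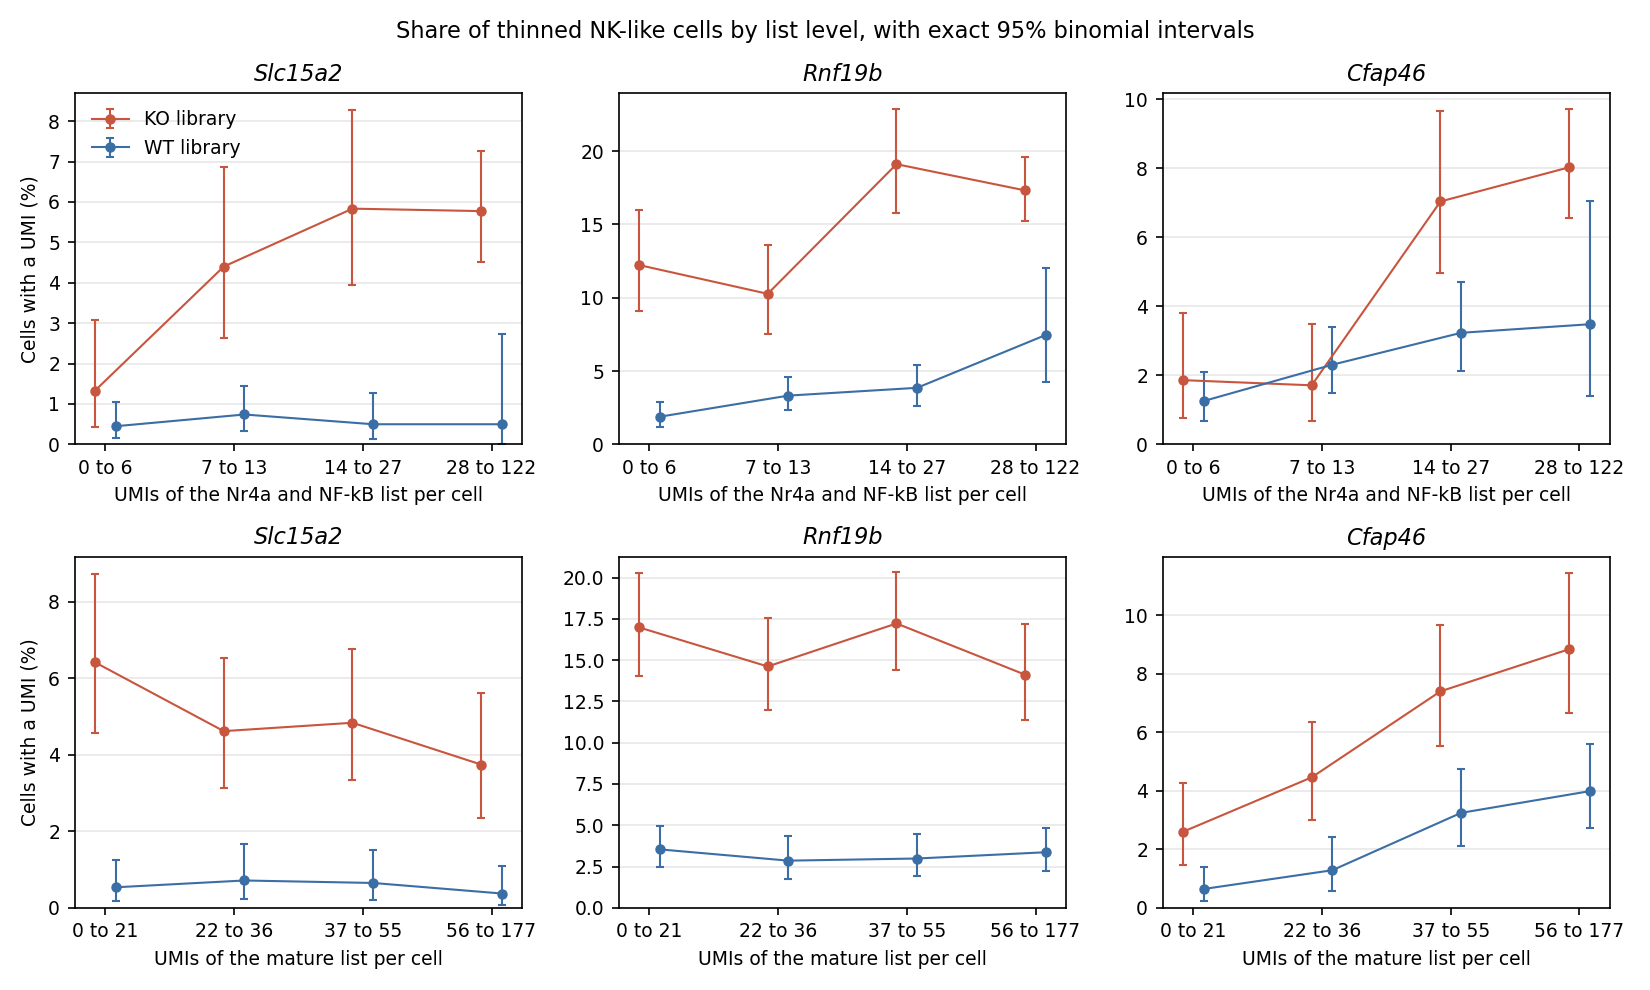
Share of thinned NK-like cells with a UMI of each gene (y axis, percent, exact 95% binomial intervals) in KO (red) and WT (blue) cells, by UMIs per cell of the Nr4a and NF-kB list (top row) and of the mature list (bottom row). KO and WT shares of Cfap46 meet at the low end of the Nr4a and NF-kB list, and both increase along the mature list.

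For Rnf19b and Slc15a2 the libraries also stayed apart along other lists. Over the hypoxia and glycolysis list, 20 genes that include many HIF targets, Rnf19b was found in 15.4%, 15.5%, 16.4% and 16.4% of KO cells and 3.92%, 2.65%, 2.21% and 3.77% of WT cells from the lowest to the highest bin. Slc15a2 was found in 5.58%, 5.23%, 3.36% and 4.10% of KO cells and 0.336%, 0.467%, 0.651% and 0.777% of WT cells. Over the heat shock and Fos list, Rnf19b was found in 19.0% of KO and 4.18% of WT cells at the lowest level, and in 11% and 2.92% at the highest. The KO intervals there, 16.2% to 22.1% and 8.11% to 14.5%, do not overlap, while the WT intervals, 2.88% to 5.85% and 1.95% to 4.19%, do. At 0 to 1 and at 4 to 56 UMIs of the 25 S and G2M genes, Rnf19b was found in 15.7% and 15.9% of KO cells and 2.70% and 2.96% of WT cells. At 2 and 3 list UMIs it was found in 15.6% and 16.0% of KO cells, and in 4.87% (3.41% to 6.71%) and 2.60% (1.35% to 4.50%) of WT cells. Within 1 UMI of a limit between bins lay 1796 KO and 2289 WT cells for this list, 1285 and 1580 for the hypoxia and glycolysis list, and 763 and 798 for the heat shock and Fos list.

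None of the 3 genes was found more often in KO cells that carried another of them. At least 1 of them had a UMI in 25.03% of thinned KO NK-like cells (interval 23.3% to 26.8%) and 5.93% of WT ones (5.14% to 6.80%), but 2 of them in 34 KO and 3 WT cells, and all 3 in 1 KO cell. Rnf19b was found in 14.9% of the 121 KO cells with Slc15a2 (9.06% to 22.5%) and 15.8% of KO cells without it (14.3% to 17.3%). Cfap46 was found in 2.48% of the KO cells with Slc15a2 (0.514% to 7.07%) and 6.03% of those without (5.10% to 7.07%). It was found in 4.10% of the 390 KO cells with Rnf19b (2.36% to 6.58%) and 6.18% of those without (5.19% to 7.30%). The intervals overlap in each of the 3 pairs.

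Likeness to other genes was measured as the smaller of the 2 libraries' Pearson correlations over 2477 KO and 3204 WT thinned NK-like cells, among 4540 genes found in at least 5% of cells of both. Cells of 1 library share their preparation, and all correlations named here were weak. In counts this sparse they are a description and no finding. Nearest to Rnf19b were the NF-kB inhibitor gene Nfkbia (0.065 in KO and 0.068 in WT cells), the antiproliferative gene Btg1 (0.131 in KO, 0.060 in WT) and the survival gene Bcl2 (0.098 in KO, 0.055 in WT), followed by Csrnp1, Tor1aip1, Vps37b, the RNase gene Zc3h12a and Stat4, a mediator of IL-12 signalling. Nearest to Cfap46 were the granzyme gene Gzma (0.087 in KO, 0.081 in WT), the transcription factor gene Irf8 (0.107 in KO, 0.078 in WT) and Rap1b (0.070 in KO, 0.091 in WT), followed by the kinase gene Pim1, Junb, the chemokine gene Ccl5, Vps37b and the granule gene Nkg7.

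Nearest to Slc15a2 were Ube2b, Vps37b, Tecpr1, Ccni, Herpud1, Dazap1, Gimap6 and Znrd1, with smaller correlations of 0.036 to 0.049, which rest on 18 WT cells. Vps37b, an ESCRT-I subunit gene, stood on all 3 lists and at 1678 CPM in KO and 893 CPM in WT NK-like cells. It was found in 99.2% of KO cells with Slc15a2 and 90.9% of those without. Irf8 averaged 6.67 UMIs per thinned KO cell with Cfap46 and 4.83 UMIs without, and in WT cells 6.32 UMIs with Cfap46 and 4.05 UMIs without.

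Among relatives of Slc15a2, Slc15a3 was also higher in the KO library. It had 152 KO and 38 WT UMIs, or 12.4 CPM in KO and 2.11 CPM in WT, in 124 KO and 37 WT cells, a log2 ratio of 2.11 with 1 CPM added. The interval without added CPM was 2.03 to 3.11. Slc15a4 stood at 13.6 CPM in KO and 11.4 CPM in WT cells (log2 ratio 0.23), Slc15a1 had 1 UMI in each library and Slc15a5 0. Of the 5 family genes 2 had 200 UMIs, Slc15a2 and Slc15a4, and 1 of the 2 was at least 2-fold higher, Slc15a2 itself. Slc15a2 was chosen for its ratio, so that count says nothing about the family. Of 9 genes of bacterial peptide sensing through NOD proteins and TLR2, 7 had 200 UMIs and 0 were 2-fold apart either way. Over all genes 1.53% were higher and 1.02% lower by that fold, so 0 of 7 is near the background. The median log2 ratio of the 7 was 0.34, against 0.045 over all genes tested. The IRAK family gene Irak2 stood at 90.5 CPM in KO and 61.8 CPM in WT cells, the adaptor gene Tab2 at 69.9 CPM in KO and 54.8 CPM in WT, and the ubiquitin ligase gene Xiap at 46.4 CPM in KO and 35.8 CPM in WT. Nod1, a sensor of peptidoglycan fragments, stood at 40.0 CPM in KO and 38.2 CPM in WT cells.

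Slc15a3 is a gene of macrophages as well, and myeloid markers were therefore set beside the Slc15a2 result. The list of 14 summed to 215 CPM in KO and 210 CPM in WT NK-like cells, most of it from Itgam and Fcgr3, which NK cells express. Some sparser markers of the list were higher in the KO library. Lyz2 had 51 KO and 20 WT UMIs, with a log2 ratio interval of 1.13 to 2.73 without added CPM, S100a8 17 KO UMIs and 1 WT UMI, S100a9 18 KO UMIs and 1 WT UMI, and C1qb 9 KO and 2 WT UMIs. Others were lower, Cd14 with 2 KO and 14 WT UMIs and C1qc with 1 KO UMI and 6 WT UMIs. The list summed to 232 CPM in KO cells with a Slc15a2 UMI and 214 CPM in KO cells without. Of the 229 KO cells with Slc15a2, 80 had an Itgam UMI, 72 Fcgr3, 16 Cd68, 2 each Lyz2, Apoe and Ms4a7, 1 each Csf1r, C1qb, S100a8 and S100a9, and 0 C1qa, C1qc, Adgre1 or Cd14. Of the 2651 KO cells without Slc15a2, 906 had an Itgam UMI, 617 Fcgr3, 130 Cd68, 48 Lyz2, 17 S100a9, 16 S100a8, 15 Apoe, 8 C1qb, 6 Ms4a7, 3 C1qa, 2 each Csf1r and Cd14, and 1 each C1qc and Adgre1. The part of myeloid RNA in the Slc15a2 and Slc15a3 differences was not tested.

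The relatives of Rnf19b are other ligases that work through an E2 enzyme and their own cysteine. Of 14 RBR ligase genes, 9 had 200 UMIs, 1 was at least 2-fold higher in the KO library, Rnf19b itself, and 0 were lower, with a median of 0.22. Over all genes 1.53% were higher and 1.02% lower by that fold, so 0 among the other 8 is near the background, and Rnf19b was chosen for its ratio. Its closest relative Rnf19a stood at 13.8 CPM in KO and 14.1 CPM in WT cells (log2 ratio -0.02, -0.32 to 0.26). Rbck1, encoding a subunit of the linear ubiquitin ligase, stood at 71.8 CPM in KO and 81.5 CPM in WT (-0.18). The ariadne ligase gene Arih1 stood at 69.5 CPM in KO and 52.1 CPM in WT (0.41), and Arih2 at 48.8 CPM in KO and 36.4 CPM in WT (0.41). Among its partners, the E2 enzyme gene Ube2l3 stood at 189 CPM in KO and 222 CPM in WT (-0.23), and Ube2l6 at 2.29 CPM in KO and 3.67 CPM in WT (-0.51). Uckl1, a uridine kinase gene whose product it is known to ubiquitinate, stood at 45.7 CPM in KO and 39.0 CPM in WT (0.22).

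Genes of the ciliary apparatus around Cfap46 were nearly silent. Of 11 genes of the C1d projection and central apparatus, 6 had no UMI in NK-like cells of either library, among them Cfap221, Hydin and Spag17. Of its C1d partner genes, Cfap54 had 6 KO and 13 WT UMIs, and Cfap74 13 KO and 11 WT UMIs. Of 20 listed motile cilium genes, 14 had any UMI and 2 had 200. These were Cfap43, at 15.5 CPM in KO and 10.0 CPM in WT cells (log2 ratio 0.58, 0.32 to 0.93), and the transcription factor gene Rfx3, at 10.2 CPM in KO and 6.90 CPM in WT (0.51, 0.20 to 0.94). Cfap126 stood at 3.11 CPM in KO and 4.01 CPM in WT, and Rsph4a at 3.03 CPM in KO and 1.67 CPM in WT. Foxj1, the master regulator of motile cilia, had 29 KO and 15 WT UMIs. Cfap46 tags were thus counted in cells with few or no tags of its known partners.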

How the data were processed

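Per the labels, sorted tumor NK cells went into 10x Chromium 3′ libraries, 1 per genotype. The authors deposited raw UMI counts for 3110 KO barcodes (1464 to 29202 UMIs each, 13407906 in all) and 3574 WT barcodes (2364 to 52557, 19553440 in all). The submitters' processing notes list Cell Ranger 2.0.2, Seurat and mm10, with no role for each. Annotation, cell calling and doublet removal are not stated there.

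Cells were clustered jointly in scanpy 1.11.5 with leidenalg 0.10.2, on log1p of counts scaled to 10000 a cell, using 2000 variable genes, 30 components, 15 neighbours and Leiden resolutions of 0.8 for all cells and 0.6 for NK-like cells. The 3 genes were left out, and so were hemoglobin genes, a choice made after a first run gave mature NK cells an erythroid name. A cluster was named where at least 3 of its top 10 genes by fold were markers of 1 list and fewer than 3 of another. Where no list reached 3, it was NK-like if NK markers had the highest mean share of cells, which is how every NK-like cluster was named. No doublet caller was run, but in an alternative the 3% of cells with most UMIs were removed.

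UMIs were summed per library and population and divided by their total (CPM). Ratios are log2 of KO over WT after adding 1 CPM unless said otherwise, and intervals are without it. No test was made. Ratio intervals, thinning and likeness were run on simulated data. The counts for the ratio intervals were independent Poisson draws, and the genes for likeness were less sparse than the 3 genes here. That checks the code, and not how the methods fare on counts as sparse and clumped as these. The text names the 3 genes, the 8 genes most like each and the 4 genes with most UMIs of each related list, apart from a few that are not reported here. Other family members, neighbours, cilium genes and myeloid markers were picked with their values known. The genes, lists and states were chosen with earlier results of these data known.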

Additional observations from a re-analysis of the deposited data

Results flagged for a closer look

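The Cfap46 log2 ratio, 1.97 over NK-like cells with 1 CPM added, had the other sign in 2 populations. It was -0.091 in the Ccr7 sub-cluster, on 56 KO and 4 WT UMIs (interval -1.53 to 1.83 without added CPM), and -1.01 in the Cd74 cluster, on 2 KO and 6 WT UMIs (-4.56 to 1.26). The difference between populations was not tested, and both intervals include 0.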

How the results depend on the processing

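No paired analysis was possible because each genotype had 1 library, and for the same reason no replicate could be left out. Over 64 alternatives 0 changed the direction of a result and 48 moved it little, by less than its counting error or, for the number of genes, by a small factor. The log2 ratio over NK-like cells, with 15 alternatives per gene, ran from 1.88 to 3.30 for Slc15a2, from 1.86 to 2.38 for Rnf19b and from 0.98 to 2.12 for Cfap46. With 5 CPM added it was 1.88, 2.01 and 1.62 in that order. With each KO sub-cluster at its WT share of cells it moved to 1.86 for Rnf19b and 1.32 for Cfap46, and without the granzyme sub-cluster, an alternative chosen after seeing the data, to 1.93 and 1.34. Without the Nr4a sub-cluster, also chosen afterwards, Cfap46 was at 0.98. Other than for the added CPM, which lowers sparse genes by construction, the cause was not tested. The share of cells with a UMI, KO minus WT, was 4.32 percentage points for Slc15a2 and 12.5 for Rnf19b at 2500 UMIs. It was 6.86 and 16.1 without thinning, 2.80 and 8.12 at 1500 UMIs and 6.41 and 17.0 at 4000 UMIs, since more UMIs per cell leave more cells with a tag. The median Cfap46 ratio within sub-clusters was 1.22, and 0.85 at Leiden resolution 1.0. Genes at least 2-fold higher in the KO library numbered 122, and 209 with no count minimum. Depth limits Slc15a2 most, with 39 UMIs in WT NK-like cells.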
